A study of Mus musculus with 6 samples.

Results

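The colony-stimulating factor receptors with the ligand gene Csf1 and with Spi1 make up 7 genes of the 55487 in the count tables, and all 7 passed the filter on low counts that left 14140 genes for testing. They were chosen by name, by a rule that used no measured value, though with earlier results of these data known. Csf1r, Csf2ra, Csf2rb, Csf2rb2 and Csf3r encode receptor chains, Csf1 a ligand, and Spi1 the transcription factor PU.1. The cells were macrophages of C57BL/6 mice carrying Lewis lung carcinoma, a mouse lung cancer line injected under the skin, with tumours taken 15 to 17 days later. Per the labels' protocols they were enriched for CD11b and sorted as positive for CD11b and F4/80 and negative for Ly6C and Ly-6G, and 3 libraries are labelled MHC-II high and 3 MHC-II low after the surface level of MHC class II. No other treatment or genotype is named, neither the sex nor the number of mice is given, and no label ties a library to mice of its own, so that p-values measure the spread between libraries, which may be technical.

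CSF1R is a receptor tyrosine kinase that binds CSF1 and interleukin 34, and most tissue macrophages need its signal to survive. The receptor for GM-CSF pairs an alpha chain of its own, encoded by Csf2ra, with the beta common chain encoded by Csf2rb, which also serves the receptors for interleukin 3 and interleukin 5 and signals through JAK2 and STAT5. The mouse has a further beta chain, encoded by Csf2rb2, that serves interleukin 3 alone, while CSF3R is the receptor for G-CSF and is best known from neutrophils. PU.1 is an ETS family factor that macrophages depend on, and Csf1r, Csf2ra and Csf3r are textbook targets of it.

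The libraries held 10202879 to 25473051 reads in genes. MHC class II transcripts went against the labels: H2-Aa, the alpha chain of I-A, averaged 5.52 ± 1.15 CPM (counts scaled to a common library size) with the high label, against 1349.5 ± 172 CPM with the low label (SD, n = 3 each), and the groups are therefore called by their labels only. The macrophage gene C1qb, for a chain of complement C1q, averaged 1072 ± 206 CPM with the high label and 1718 ± 793 CPM with the low label, and the lysozyme gene Lyz2 6456 ± 562 CPM and 3384 ± 264 CPM. Labelled low replicate 3 stood apart, with 47.3% of its reads in genes from an rRNA copy, against 3.85% to 13.5% in the other 5 libraries. Its log2 CPM climbed with GC content by 0.74 per 10 percentage points, against slopes of 0.19 for labelled low replicate 1 and from -0.41 to 0.03 among the remaining libraries. The 7 genes lie on the GC-rich side, between 53.3% for Csf2rb2 and 58.9% for Spi1, at percentiles 73.4 and 94.96 of the tested genes, so the main results are given as measured and with each library's smooth GC trend taken out. That step also takes out any true difference that follows GC content.

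Among the receptor chains, Csf2rb and Csf2rb2, the genes of the beta chains, were at a lower level in every library labelled MHC-II high than in every library labelled MHC-II low, 2.69-fold and 2.75-fold higher with the low label by the ratio of mean CPM, while Csf1r, Csf2ra, Csf3r and Spi1 overlapped between the labels. None of the 7 passed an adjusted p of 0.05 in edgeR's quasi-likelihood test, which called 0.446% of all genes tested (0.354% lower), and 4 of the 7 were under 0.05 before adjustment. The share of all genes under that unadjusted threshold was not counted, so such counts, here and below, support no shared difference. DESeq2 called Csf2rb and Csf2rb2 lower, where it called 1.96% of all genes lower, and limma-voom called 0 of the 7 and 0.368% of all genes. With the GC trend taken out edgeR called the same 2 genes lower, against 1.53% of all genes called lower, and so it did with the batch as a further term (2.66%), in 5 libraries without labelled low replicate 3 (1.21%), and, with no GC term, without a filter on low counts (1.6%). With the batch as a block and no GC term it called 0 of the 7 and 0.29% of all genes. Without labelled low replicate 2 it called Csf2rb, Csf2rb2 and Csf3r lower, where 5.45% of all genes were called lower, and without labelled low replicate 3 only Csf2rb, where 0.369% were. All 7 had a negative fold change, with a median of -0.87 on the log2 scale, against -0.02 over all genes tested. With the GC trend taken out 5 of the 7 were negative and Csf2ra and Spi1 were not, with a median of -0.57 (-0.42 in the 5 libraries), and without both libraries of batch 3 the same 2 genes were above 0. Of the 7, 3 did not overlap between the labels, Csf1 being the third, and over all genes tested 9.48% stood lower without overlap. In bulk samples, fewer cells of a type and less RNA per cell cannot be told apart.

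**Figure D1:**
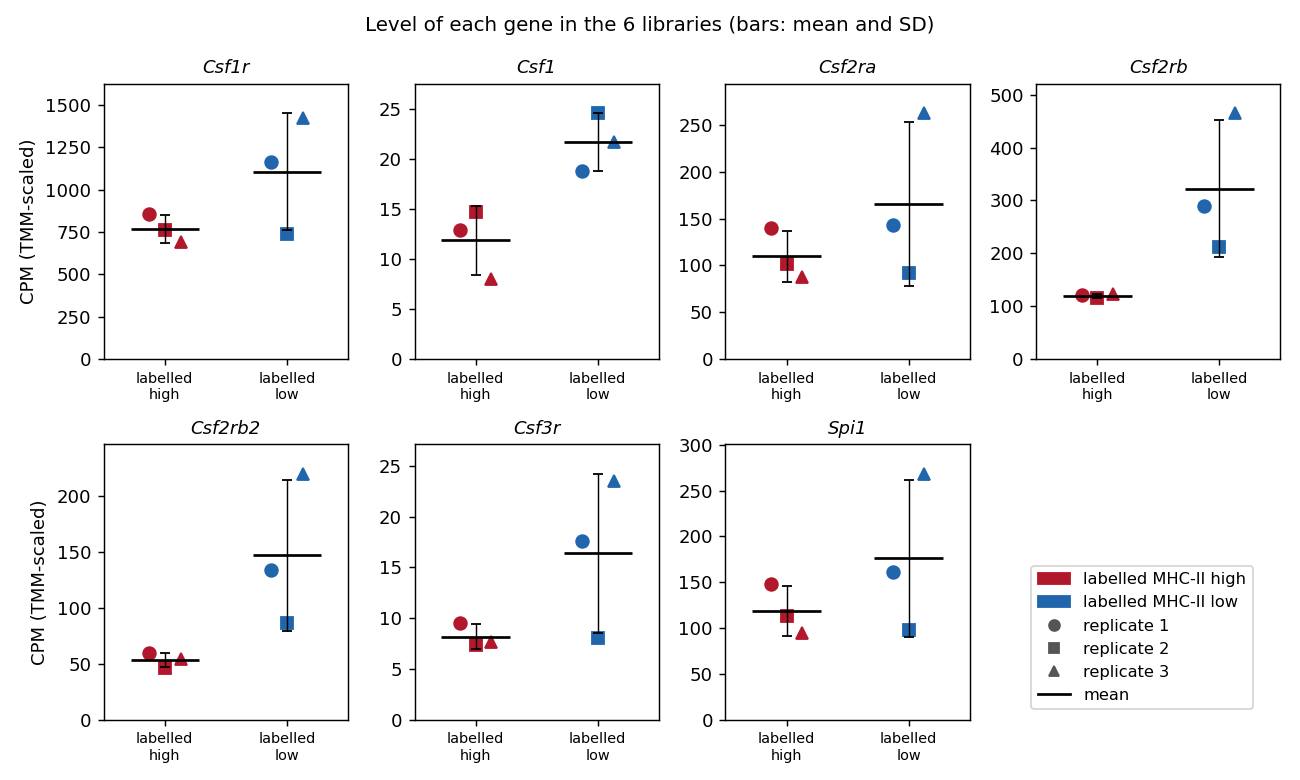
Level of each of the 7 genes in CPM (y axis, starting at 0) for 3 libraries with the MHC-II high label and 3 with the MHC-II low label, with replicates as symbols, the mean as a thick bar and the SD as a thin one. Csf2rb lay between 116 and 123 CPM with the high label, below all 3 values with the low label, and labelled low replicate 3 was the highest library for 6 of the 7 genes.

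Csf2rb, the beta common chain, lies on chromosome 15 from 78325752 to 78353847 on the forward strand (GRCm38, ENSMUSG00000071713). It had 2164, 2604 and 3427 reads, or 120.4, 116 and 123 CPM, in labelled high replicates 1, 2 and 3, and 5440, 5195 and 2606 reads, or 289.9, 212 and 465 CPM, in labelled low replicates 1, 2 and 3. The 3 libraries labelled high were close to each other, while those labelled low were spread more than 2-fold. The log2 fold change was -1.43 (standard error 0.28, edgeR adjusted p 0.0987), and the log2 ratios within batches 1, 2 and 3, whose labels equal the replicate numbers, were -1.26, -0.87 and -1.92. Without labelled low replicate 3 it was -1.07 with an adjusted p of 0.0479, and without labelled low replicate 2 it was -1.62 with 0.00679. Csf2rb was called lower with the GC trend taken out (log2 fold change -1.03, standard error 0.15, adjusted p 0.0114), and its GC-adjusted level was 134.7 ± 17.1 CPM with the high label and 276 ± 47.6 CPM with the low label (SD, n = 3 each).

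Csf2rb2, the beta chain specific to interleukin 3, lies 20030 bases away on chromosome 15, from 78282507 to 78305721 on the reverse strand (ENSMUSG00000071714). It stood at 59.3, 46.4 and 54.4 CPM in labelled high replicates 1 to 3 and at 134, 86.7 and 219.7 CPM in labelled low replicates 1 to 3. As for Csf2rb, no library labelled high reached the lowest of those labelled low. The log2 fold change was -1.46 with a standard error of 0.32 (adjusted p 0.14 by edgeR), -1.05 without labelled low replicate 3 (adjusted p 0.0999), -1.69 without labelled low replicate 2 (adjusted p 0.00714) and -1.10 with the GC trend taken out (adjusted p 0.0224).

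The genes of the beta chains are close copies. Their longest protein-coding transcripts, of 4900 bases for Csf2rb and 4740 for Csf2rb2, were identical at 90.9% of 4679 aligned bases. Of the 100-base windows of the Csf2rb transcript 6.96% also occur in Csf2rb2, and of the 50-base windows 18.4%, the shares the other way being 7.20% and 19.0%. No source used here gives the read length or the treatment of shared reads, so how reads of the identical stretches were divided is uncertain. The log2 ratio of Csf2rb2 to Csf2rb reads was -1.02, -1.32 and -1.17 in labelled high replicates 1 to 3 and -1.11, -1.29 and -1.08 in labelled low replicates 1 to 3. The groups overlapped fully, with a difference of -0.01 (exact two-sided permutation p = 1, 3 against 3), so that reads of Csf2rb2 were 0.444 and 0.447 of those of Csf2rb by the geometric mean with the high and the low label.

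By profile over the 6 libraries Csf2rb was the third closest to Csf2rb2 of 8974 protein-coding genes compared, with a root mean square difference of 0.107 between the centred log2 CPM values. Sema4d, a membrane semaphorin, was the closest to Csf2rb2 (0.0720) and the second closest to Csf2rb (0.0877), and stood at 65.6 ± 7.12 CPM with the high label and 188 ± 76.1 CPM with the low label. Ndst1, a heparan sulfate sulfotransferase, was the closest to Csf2rb (0.0815), Slc29a3, a nucleoside transporter, the third (0.0910), and B3gnt7, a glycosyltransferase, the second closest to Csf2rb2 (0.105). This describes 6 libraries that share their labels and GC trends. Ncf4, an oxidase subunit and the nearest gene to Csf2rb2 on its other side at 19926 bases, stood at 69.5 ± 17.8 CPM with the high label and 88.1 ± 43.6 CPM with the low label, with overlap, and its log2 fold change of -0.34 (adjusted p 0.646 by edgeR) became 0.17 with the GC trend taken out.

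Csf2ra, the alpha chain of the GM-CSF receptor, lies on chromosome 19 from 61223957 to 61228429 on the reverse strand (ENSMUSG00000059326). It stood at 139.9, 101 and 88.0 CPM in labelled high replicates 1 to 3 and at 143, 91.5 and 263 CPM in labelled low replicates 1 to 3. Labelled low replicate 2 lay within the range of the libraries labelled high, and labelled low replicates 1 and 3 lay above all of them. The log2 fold change was -0.59 with a standard error of 0.37 (adjusted p 0.491 by edgeR), -0.10 without labelled low replicate 3 (adjusted p 0.944) and 0.019 with the GC trend taken out (standard error 0.11, adjusted p 0.957). GC-adjusted levels were 128.5 ± 4.35 CPM with the high label and 127 ± 15.0 CPM with the low label.

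Within a library, a ratio of genes needs no scaling. The log2 ratio of Csf2rb to Csf2ra reads was -0.22, 0.20 and 0.48 in labelled high replicates 1 to 3 and 1.02, 1.21 and 0.82 in labelled low replicates 1 to 3. Reads of the beta common chain were thus 1.11 times those of the alpha chain with the high label and 2.03 times with the low label by geometric mean. The groups did not overlap, and the difference of -0.87 had an exact two-sided permutation p of 0.1, the smallest that 3 against 3 allows, and 0.2 adjusted over the 6 ratios computed. The ratio of Csf2rb to Spi1 differed by -0.88 and that of Csf1r to Csf2rb by 0.88, both without overlap and with the same p. The ratios of Csf1r to Spi1 (difference -0.0034, exact permutation p = 1) and of Csf1r to Csf1 (0.43, exact permutation p = 0.4) overlapped. Taking out the GC trend of each library gave -1.05 for Csf2rb over Csf2ra and -1.10 for Csf2rb over Spi1.

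**Figure D2:**
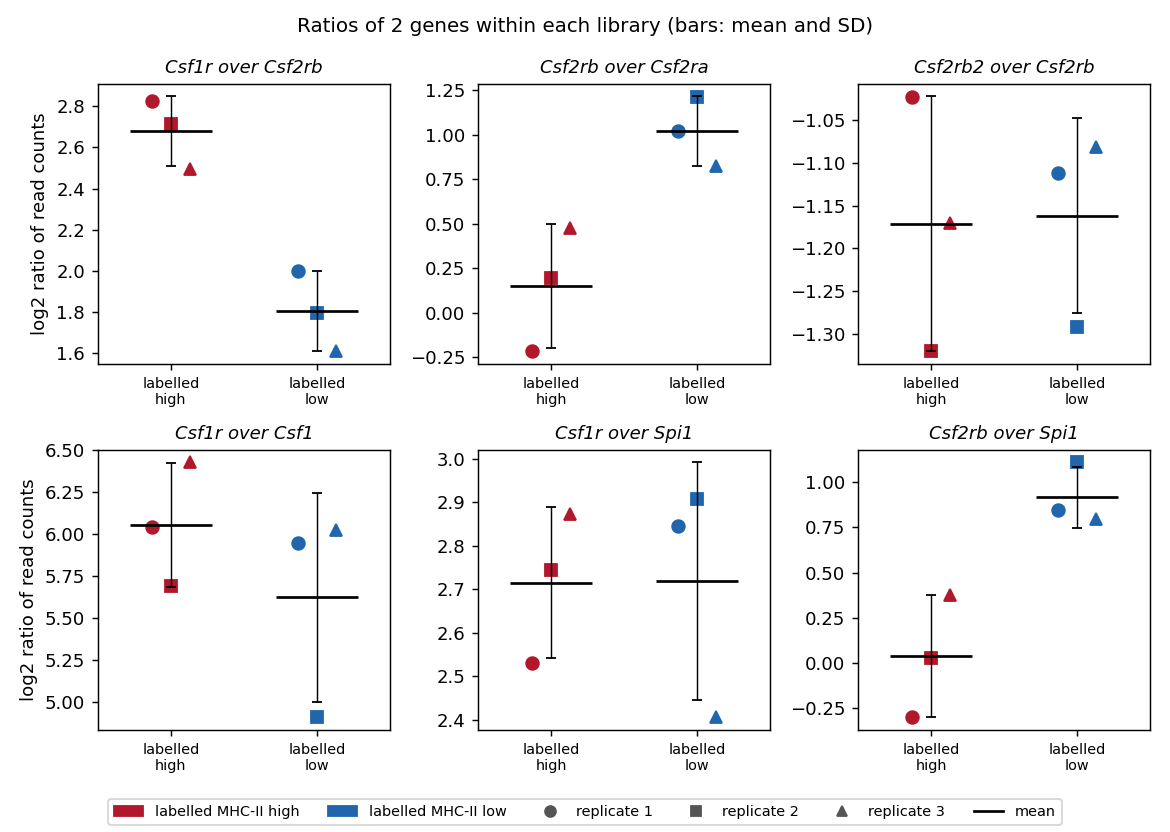
Log2 ratio of the read counts of 2 genes within each library (y axis, its range set per panel) for the 6 ratios, with replicates as symbols and bars for the mean and SD. Csf2rb is lower relative to Csf2ra, Spi1 and Csf1r in every library labelled MHC-II high, while Csf2rb2 over Csf2rb and Csf1r over Spi1 overlap.

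Promoter windows of 250 bases before to 50 after the start site (RefSeq, GRCm38.p6) were searched for 4 of the 7 genes. These were Csf1, Csf2ra, Csf2rb2 and Csf3r. Csf2rb and Spi1 had no window in the source used, and Csf1r was left out of the search, so its promoter was not examined. The windows of 3 receptor chains are shown, since a PU.1 site near the start is a textbook feature of myeloid receptor genes. Each is written 5′ to 3′ on the strand of its gene, and capitals mark GAGGAA, the core of the purine-rich box that PU.1 binds, or its reverse complement.
Csf2rb2, chr15:78305672-78305971, reverse strand: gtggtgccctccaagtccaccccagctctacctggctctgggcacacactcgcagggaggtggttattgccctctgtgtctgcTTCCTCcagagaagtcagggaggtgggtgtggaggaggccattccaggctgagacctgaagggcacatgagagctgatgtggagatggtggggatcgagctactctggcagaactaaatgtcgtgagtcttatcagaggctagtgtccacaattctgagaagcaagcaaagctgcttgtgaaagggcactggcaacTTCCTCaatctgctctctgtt
Csf2ra, chr19:61228369-61228668, reverse strand: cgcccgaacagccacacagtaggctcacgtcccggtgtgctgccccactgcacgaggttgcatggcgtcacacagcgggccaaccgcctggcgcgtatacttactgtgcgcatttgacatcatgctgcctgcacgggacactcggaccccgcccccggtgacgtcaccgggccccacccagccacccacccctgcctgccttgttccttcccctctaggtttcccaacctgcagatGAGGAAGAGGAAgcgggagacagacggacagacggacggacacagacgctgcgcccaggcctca
Csf3r, chr4:126024409-126024708, forward strand: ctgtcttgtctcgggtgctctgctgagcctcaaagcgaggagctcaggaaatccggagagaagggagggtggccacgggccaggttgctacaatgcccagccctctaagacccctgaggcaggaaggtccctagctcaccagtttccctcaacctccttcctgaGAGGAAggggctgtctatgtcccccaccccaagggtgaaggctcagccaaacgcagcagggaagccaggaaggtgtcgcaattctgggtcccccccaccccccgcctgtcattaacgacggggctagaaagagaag
The motif was searched on both strands. With positions counted from the start site at 1, and the base before it at -1, Csf2ra holds it 2 times side by side, from positions -14 and -8, and Csf3r 1 time, from position -86. Csf2rb2 holds it 2 times on the other strand, its most upstream bases at positions -167 and 30. The window of Csf1 holds 0. GAGGAA was present in 28.3% of all 32851 RefSeq windows, so a match is common. TGTGGT, a RUNX motif held by 16.8% of windows, and TTGCNNAA, a C/EBP motif held by 10.8%, were found in 0 of the 4 windows. A match is a description of letters and no measured binding site.

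Csf1r, the CSF1 receptor, lies on chromosome 18 from 61100598 to 61132149 on the forward strand (ENSMUSG00000024621) and had the highest level per length of the 7. It stood at 855, 762 and 692 CPM in labelled high replicates 1 to 3 and at 1159.9, 738 and 1421 CPM in labelled low replicates 1 to 3. Labelled low replicate 2 lay among the libraries labelled high. The log2 fold change was -0.52 with a standard error of 0.26 (adjusted p 0.44 by edgeR), -0.30 without labelled low replicate 3 (adjusted p 0.76) and -0.12 with the GC trend taken out (adjusted p 0.627), when the levels were 868 ± 18.1 CPM with the high label and 946 ± 91.2 CPM with the low label. Hmgxb3, on the opposite strand, shares 873 of the 5774 exonic bases of Csf1r. The strand setting of the counting is not given in the sources used here, so reads of that stretch cannot be assigned with certainty. Hmgxb3 stood at 24.8 ± 1.69 CPM with the high label and 37.7 ± 12.4 CPM with the low label (log2 fold change -0.60, adjusted p 0.408 by edgeR). How far the shared stretch bears on the count of Csf1r was not tested.

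Csf1, the ligand, lies on chromosome 3 from 107741048 to 107760469 on the reverse strand (ENSMUSG00000014599). It had 233, 330 and 224 reads, or 12.97, 14.7 and 8.01 CPM, in labelled high replicates 1 to 3, and 353, 602 and 122 reads, or 18.8, 24.6 and 21.8 CPM, in labelled low replicates 1 to 3. Every library labelled high was below every library labelled low. The log2 fold change was -0.87 with a standard error of 0.27 (adjusted p 0.291 by edgeR), the same to 2 decimals without labelled low replicate 3 (adjusted p 0.352), and -0.60 with the GC trend taken out (adjusted p 0.302), when the groups overlapped. Fibroblasts are a known source of CSF1, and the summed level of 8 fibroblast markers ran from 72.6 to 411 CPM with the high label and from 129.9 to 599 CPM with the low label, with 0 of the 8 at 0 in all libraries. The marker sum was lowest in replicate 3 of either label, at 72.6 CPM in labelled high replicate 3, the library lowest in Csf1. Labelled low replicate 3, at 129.9 CPM, was below labelled high replicates 1 and 2, at 411 and 408 CPM, but had more Csf1 than either. The part of fibroblasts in the level of Csf1 was not tested.

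Il34, the other ligand of CSF1R, had 45 reads in total with the high label and 32 with the low label. Csf2, which encodes GM-CSF, had 5 reads under either label, Csf3, which encodes G-CSF, had 12 with the high label and 0 with the low label, Il5 had 2 and 0, and Il3 had none in any library. The genes of Il34, Csf2, Csf3, Il5 and Il3 were named for their role, after their values were seen. Their read totals are raw, not scaled to library size, and do not compare the labels. A count of 0 leaves room for an expected count of up to about 3 reads, so a low level cannot be told from none. Csf1, by contrast, had at least 122 reads in every library. Of 14 listed ligands and receptors of these classes 8 were tested and 1 was called lower, Flt3, a receptor of the CSF1R class that dendritic cells develop through, at 0.117 ± 0.092 CPM with the high label and 3.05 ± 1.98 CPM with the low label (adjusted p 0.0396 by edgeR). At these levels Flt3 could pass the filter on low counts only through the libraries labelled low. The call of Flt3 was lost without any 1 library labelled high or without labelled low replicate 1 (adjusted p 0.158 to 0.216), by limma-voom (0.065) and without batch 3 (0.0733), while the log2 fold change of -4.70 stayed between -5.47 and -4.40 in these. Kit, the receptor for stem cell factor, stood at 0.254 ± 0.158 and 2.26 ± 0.634 CPM with the high and the low label (adjusted p 0.0791, or 0.0208 after the GC trend was taken out), and Pdgfrb, the upstream neighbour of Csf1r at 15536 bases, at 2.34 ± 1.495 and 3.24 ± 0.428 CPM (adjusted p 0.656).

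Csf3r, the G-CSF receptor, lies on chromosome 4 from 126024550 to 126044440 on the forward strand (ENSMUSG00000028859). It had 172, 166 and 213 reads, or 9.57, 7.40 and 7.62 CPM, in labelled high replicates 1 to 3, and 330, 197 and 132 reads, or 17.6, 8.05 and 23.6 CPM, in labelled low replicates 1 to 3. Labelled low replicate 2 lay within the libraries labelled high. The log2 fold change was -0.98 with a standard error of 0.37 (adjusted p 0.385 by edgeR), -0.65 without labelled low replicate 3 (adjusted p 0.642) and -0.57 with the GC trend taken out (adjusted p 0.252), and the adjusted p was 0.0248 without labelled low replicate 2. Of 12 neutrophil markers, Ly6g and Camp were at 0 in all libraries and 4 were high enough to test, of which 0 were called (2 under an unadjusted p of 0.05, and 0 called by DESeq2 and by limma-voom). Their summed level ran from 104 to 178 CPM with the high label and from 127 to 543 CPM with the low label. Most of it was Mmp9, a gelatinase that macrophages also make, at 119 ± 39.7 CPM and 288 ± 215 CPM with the high and the low label. S100a8 stood at 5.39 ± 1.44 CPM with the high label and 2.32 ± 1.52 CPM with the low label, and Cxcr2, the neutrophil chemokine receptor, had 14 reads and 3 reads, not scaled to library size. Mmp9, S100a8 and Cxcr2 were chosen after their values were seen, and the part of neutrophils in the level of Csf3r was not tested.

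Spi1, which encodes PU.1, lies on chromosome 2 from 91082390 to 91115756 on the forward strand (ENSMUSG00000002111). It stood at 148, 114 and 94.4 CPM in labelled high replicates 1 to 3 and at 161, 98.4 and 268 CPM in labelled low replicates 1 to 3. The labels overlapped. Its log2 fold change was -0.57 with a standard error of 0.35 (adjusted p 0.49 by edgeR), -0.13 without labelled low replicate 3 (adjusted p 0.923) and 0.074 with the GC trend taken out (standard error 0.090, adjusted p 0.738). GC-adjusted levels lay between 137.7 and 144 CPM with the high label and between 130.2 and 139 CPM with the low label. The profiles closest to Spi1 were Ehbp1l1 (0.0227), E2f4 (0.0243) and Nucb1 (0.0324), and those closest to Csf2ra were Zdhhc12 (0.0238), Sgta (0.0292) and Dag1 (0.0307).

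**Figure D3:**
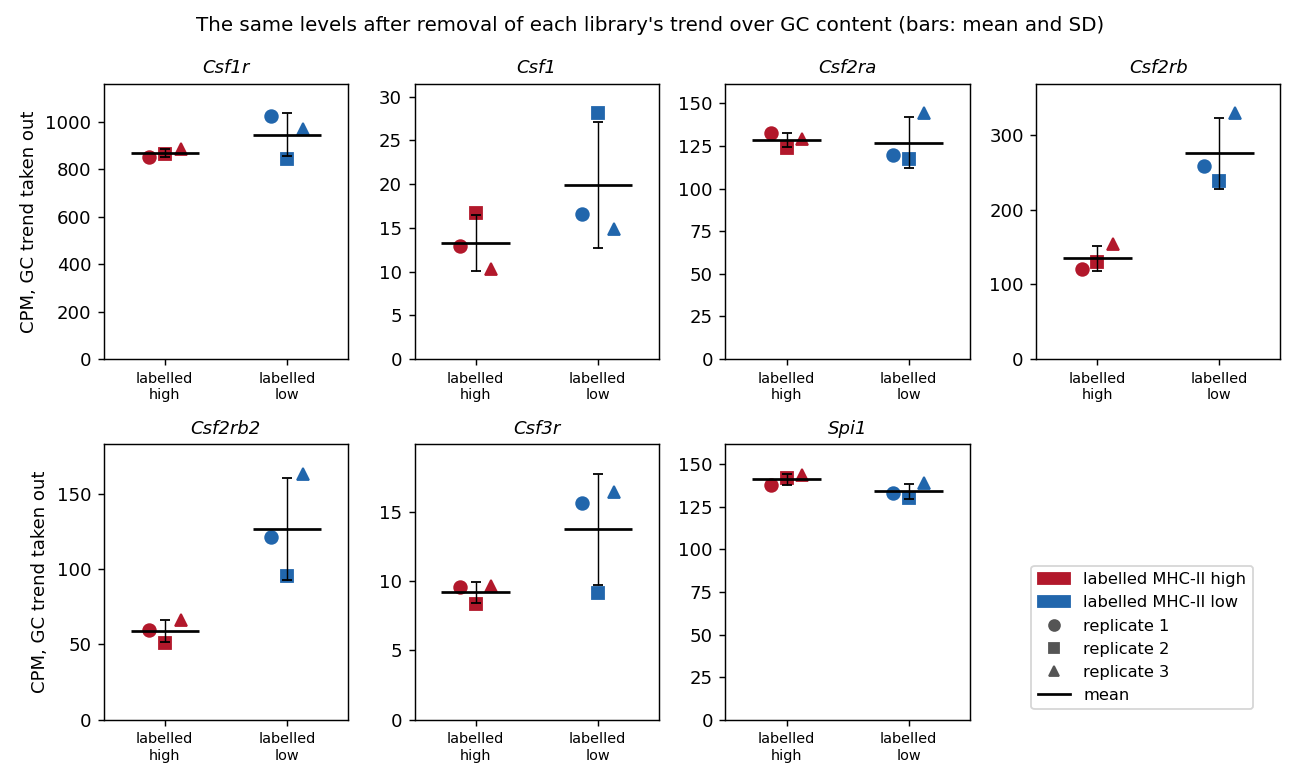
The levels of the 7 genes after each library's smooth trend over GC content was taken out, in CPM (y axis, starting at 0), by label and replicate, with the mean and SD. Spi1 and Csf2ra lie at like levels in both labels, while Csf2rb and Csf2rb2 remain lower in all 3 libraries labelled MHC-II high.

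**Figure D4:**
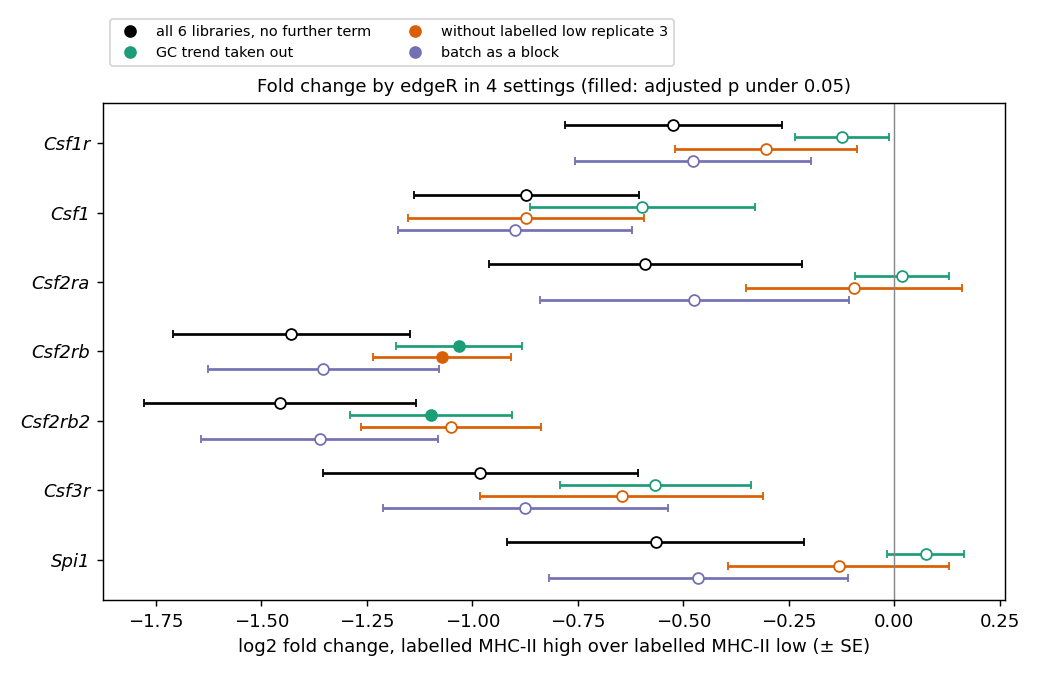
Log2 fold change of libraries labelled MHC-II high over those labelled MHC-II low (x axis, with SE bars) for the 7 genes in 4 settings of edgeR, with filled points for an adjusted p under 0.05. Csf2rb is filled with the GC trend taken out and without labelled low replicate 3, Csf2rb2 with the GC trend taken out, and no point is filled for the other 5 genes.

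Per length of exon, the order of the levels was the same under both labels. Levels per length are given as RPKM, the CPM divided by the exon length in kilobases. Csf1r was first at 133 ± 14.2 RPKM with the high label and 192 ± 59.7 RPKM with the low label, followed by Spi1 at 44.0 ± 10.1 and 65.3 ± 31.9 RPKM. Csf2ra came next at 38.2 ± 9.39 and 57.7 ± 30.6 RPKM, Csf2rb at 16.4 ± 0.457 and 44.3 ± 17.8 RPKM, and Csf2rb2 at 11.3 ± 1.37 and 31.0 ± 14.2 RPKM. Csf3r had 2.27 ± 0.332 and 4.54 ± 2.17 RPKM, and Csf1 2.25 ± 0.658 and 4.11 ± 0.549 RPKM. Spi1 and Csf2ra overlapped under both labels, as did Csf3r and Csf1. Csf2ra stood clear of Csf2rb with the high label (30.7 to 48.7 RPKM against 15.9 to 16.8 RPKM), whereas with the low label their ranges overlapped (31.9 to 91.5 RPKM against 29.2 to 63.9 RPKM). Csf2rb likewise stood clear of Csf2rb2 with the high label and overlapped it with the low label. Within each of the 3 libraries labelled low, Spi1 was above Csf2ra, Csf2ra above Csf2rb and Csf2rb above Csf2rb2, so these overlaps come from the spread between libraries. Csf3r was above Csf1 in 2 of 3 libraries of either label.

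**Figure D5:**
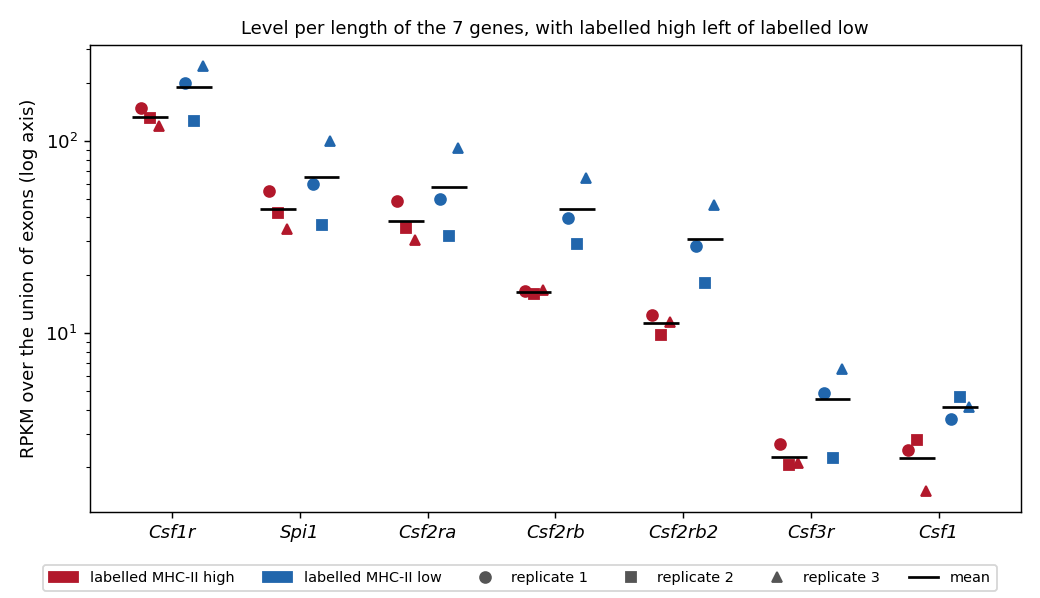
Level per length of the 7 genes in RPKM (log axis), each with the libraries labelled MHC-II high left of those labelled MHC-II low, replicates as symbols and the mean as a bar. Csf1r is highest and Csf3r and Csf1 are lowest under both labels.

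Genes of the pathways were read from 8 lists that hold 124 genes, of which 112 were tested. Of these 4 were called, all lower, where 0.354% of all genes tested were called lower. The 4 calls became 31 without labelled low replicate 2, where 7.16% of all genes were called. They became 1 or 2 without any 1 library labelled high or without labelled low replicate 1, where 0.0553% to 0.0967% of all genes were called. Of 28 adaptors, kinases and regulators downstream of CSF1R 0 were called by edgeR, with 6 under an unadjusted p of 0.05, 1 called by DESeq2 and 0 by limma-voom, and a median log2 fold change of -0.26, against -0.02 over all genes. That median was -0.09 with the GC trend taken out and 0.06 with scaling by total counts, which moved the median of all genes to 0.25. The smallest p values belonged to the tyrosine kinase gene Src (15.4 ± 4.51 CPM with the high label, 39.4 ± 22.7 CPM with the low label), the PI3-kinase subunit gene Pik3cd (34.4 ± 7.15 and 77.9 ± 40.8 CPM) and Rac2, a small GTPase (122 ± 6.95 and 229 ± 115 CPM), with adjusted p values of 0.281, 0.299 and 0.386 by edgeR. With the GC trend taken out Pik3cd was called lower (log2 fold change -0.59, adjusted p 0.0434), and Src was the gene called by DESeq2. Of 15 genes of JAK-STAT signalling and survival below the beta common chain 0 were called (5 under an unadjusted p of 0.05, 1 by DESeq2, 0 by limma-voom), with a median of -0.53. The median was -0.15 with the GC trend taken out. With total counts it was -0.18, against 0.25 over all genes. Pim1, a kinase induced by STAT5, stood at 232 ± 17.0 CPM with the high label and 424 ± 127 CPM with the low label without overlap (log2 fold change -0.87, adjusted p 0.225), -0.38 with the GC trend taken out. Socs2 and Socs1, feedback inhibitors of cytokine signalling, had log2 fold changes of -1.23 and -1.70 (adjusted p 0.207 and 0.285 by edgeR), and Socs2 was called lower by DESeq2 (adjusted p 0.028) and with GC trend and batch both in the fit (0.012).

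Among 9 genes linked to myeloid cells grown in GM-CSF 8 were tested. All 8 had a negative fold change, with a median of -1.61 on the log2 scale. Cd209a, 1 of the 8, could pass the filter on low counts only through the libraries labelled low, which fixes its sign. Where 0.354% of all genes tested were called lower, 2 of the 8 were. These were Ccl22, a chemokine of dendritic cells, at 0.586 ± 0.089 CPM with the high label and 12.3 ± 1.52 CPM with the low label (log2 fold change -4.36, adjusted p 0.000577 by edgeR), and Itgax, which encodes CD11c, at 61.3 ± 23.4 and 304 ± 73.5 CPM (-2.31, adjusted p 0.0275). The call of Itgax was lost when replicate 1 of either label or replicate 2 of the high label was left out (adjusted p 0.132 to 0.159). Cd209a, a lectin gene, had 7 reads in total with the high label and 173 with the low label (log2 fold change -4.81, adjusted p 0.0577), and was called with the batch as a block (-4.73, adjusted p 0.0325), by DESeq2 (4.78e-07), with the GC trend taken out (0.0116) and without batch 3 (0.0377). Irf4, a factor tied to GM-CSF cultures, stood at 4.00 ± 1.26 and 14.0 ± 4.28 CPM (-1.81, adjusted p 0.0784) and was called once the GC trend was taken out (0.0146). The median was -1.60 with the GC trend taken out, where 5 of the 8 were called lower, against 1.53% of all genes. Itgax and Cd209a stand in the list of dendritic cell markers too. Of 10 dendritic cell markers 6 were tested and 3 were called lower, Ccr7, Flt3 and Itgax, where 0.354% of all genes were. This count was 4 of 6 tested with the batch as a block, where 0.283% of all genes were called lower. It was 0 of 10 without labelled high replicate 2 (0.0553% of all genes), where Ccr7 had an adjusted p of 0.0606 by edgeR. It was 1 of 10 without labelled high replicate 1 (0.061% of all genes) and 1 of 6 without labelled low replicate 1 (0.0948%). Without labelled low replicate 3 it was 6 of 10 (0.369%). All of the markers tested had negative fold changes in each of these settings. Flt3 and Cd209a, scarce with the high label, could pass the filter on low counts only through the libraries labelled low. For such genes the sign follows from the filter, so the shared sign is no support. Their summed level ran from 47.4 to 90.4 CPM with the high label and from 265 to 398 CPM with the low label, with none at 0 in all libraries. Most of this sum was Itgax, at 61.3 ± 23.4 CPM with the high label and 304 ± 73.5 CPM with the low label. This sum and Csf2rb are separated between the labels in the same direction, and the part of such cells in the level of Csf2rb was not tested.

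Of 13 genes linked to CSF1-dependent macrophages 0 were called by edgeR, with 2 under an unadjusted p of 0.05, 1 called by DESeq2 and 0 by limma-voom, and the median log2 fold change was -0.29. The median was -0.07 with the GC trend taken out and 0.07 when labelled low replicate 3 was left out too (9 above and 4 below 0). With total counts it was 0.09, against 0.25 over all genes. Adgre1, which encodes F4/80, stood at 344 ± 25.8 CPM with the high label and 184 ± 33.8 CPM with the low label without overlap (log2 fold change 0.90, adjusted p 0.132, and 0.0158 with the GC trend taken out), the opposite sign to Csf2rb. Sirpa, an inhibitory receptor, stood at 621 ± 35.6 and 988 ± 366 CPM (adjusted p 0.398). Of 10 macrophage markers 0 were called by edgeR (3 under an unadjusted p of 0.05) and 0 by limma-voom. DESeq2 called 2 of them higher, against 0.856% of all genes. The markers had a median of -0.49 that was -0.01 with the GC trend taken out. Their sums were 9703 to 12081 CPM with the high label and 6564 to 12883 CPM with the low label.

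Of 20 textbook targets of PU.1 1 was called, Il1b, interleukin 1 beta, at 51.4 ± 10.999 CPM with the high label and 158 ± 30.1 CPM with the low label (log2 fold change -1.62, adjusted p 0.0311 by edgeR, and 0.0742 with the batch as a block). The call of Il1b was also lost without any 1 library labelled high or without labelled low replicate 1 (adjusted p 0.0891 to 0.25). Of the 20, 13 had a positive and 7 a negative fold change, with a median of 0.18, unlike the sign of Spi1 itself as measured. Lyz2 was at 0.93 on this scale (adjusted p 0.122, and 0.0116 with the GC trend taken out, where 5 were called higher and 1 lower). Of 18 partners, opponents and inducers of PU.1 15 were tested and 0 called (4 under an unadjusted p of 0.05, 2 by DESeq2, 0 by limma-voom), with a median of -0.25 that was -0.0010 with the GC trend taken out. Egr1 and Egr2, immediate-early factors, stood at 27.3 ± 10.2 and 17.9 ± 3.39 CPM with the high label and 78.7 ± 48.3 and 32.0 ± 8.42 CPM with the low label (adjusted p 0.302 and 0.298). Of 12 other ETS factors 10 were tested and 0 called by edgeR, by DESeq2 and by limma-voom (2 under an unadjusted p of 0.05 by edgeR). Their median was 0.14, and 0.08 with the GC trend taken out. When the batch was in that fit too, 2 were called lower, Elf4 and Etv6, against 2.66% of all genes. Elf4 stood at 93.0 ± 1.69 CPM with the high label and 165 ± 54.4 CPM with the low label, Etv6 at 82.9 ± 6.59 and 130.4 ± 28.6 CPM, and Elf1 at 101 ± 8.57 and 75.4 ± 19.8 CPM (adjusted p 0.271, 0.298 and 0.451). The nearest relatives of PU.1 were scarce, Spib with 4 reads with the high label and 15 with the low label, and Spic with 128 and 106, named for their kinship after their values were seen. These are raw totals, not scaled to library size, and do not compare the labels.

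Apart from monocytes, markers of other cells had low summed levels. These were 2.45 to 3.43 CPM with the high label and 1.07 to 3.48 CPM with the low label for mast cells and eosinophils, which also carry the beta common chain, with Mcpt8 and Epx at 0. They were 0.557 to 1.14 CPM and 2.18 to 2.50 CPM for T and NK cells, with Cd3e, Cd3d and Cd8a at 0, and 2.23 to 2.90 CPM and 6.54 to 13.03 CPM for B cells. Endothelial markers ran from 18.0 to 25.1 CPM and 15.7 to 30.9 CPM, epithelial ones from 14.8 to 21.7 CPM and 41.0 to 42.6 CPM, and monocyte ones from 611 to 685 CPM and 491 to 1138 CPM, with the high and the low label. Of the 25 genes of these 6 lists and the fibroblast list that were tested, edgeR called 1, Cdh1, lower. The call of Cdh1 was lost without any 1 library labelled high, without labelled low replicate 1, without batch 3 and with total counts. DESeq2 called Cdh1, the monocyte genes Ccr2 and Ms4a4c and the B cell gene Ighm lower, and so did edgeR with the GC trend taken out. Of all genes these fits called 1.96% and 1.53% lower. The part of such cells in the levels of the 7 genes was not tested.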

How the data were processed

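The authors deposited whole-number read counts per gene for 6 RNA libraries of sorted macrophages, made from rRNA-depleted total RNA with a stranded kit, per the labels' protocols. Per the submitters' processing notes, HTSeq, STAR, Trimmomatic, FastQC and DESeq2 were used with GRCm38; no source used here gives their versions, the annotation, the strand setting or the read length. The 5 summary lines were left out; reads without a feature were 35.2% to 49.4%.

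Counts were tested as labelled MHC-II high over low with edgeR 4.0.16 (R 4.3.3, TMM scaling, filterByExpr, quasi-likelihood test, Benjamini-Hochberg adjustment over 14140 genes, threshold 0.05), which was tested on simulated data. DESeq2 1.42.0 and limma-voom 3.58.1 were alternatives, with other scalings and filters, a batch block, a GC offset (loess span 0.4) and left-out libraries. CPM used TMM scaling, RPKM the union of exons in GENCODE M21, and ratios added 0.5 reads to each count (0.5 CPM for within-batch log2 ratios of 1 gene). Within-library ratios were tested by exact permutation with SciPy 1.17.1, and transcripts were aligned with Biopython 1.88. Replicate numbers match the batch labels, so they pair the libraries by label. Deviations from the group means of libraries with the same number correlated at 0.168, 0.369 and -0.213 over 14140 genes for batches 1, 2 and 3.

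The members and lists were chosen with earlier results of these data known. Named were the 7 genes, neighbouring genes, the 3 most similar profiles per gene, and from each list the genes called or otherwise the 3 of lowest p among those averaging at least 1 CPM. Depth was 10202879 to 25473051 reads in genes, and precision rests on 3 libraries per label.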

Additional observations from a re-analysis of the deposited data

How the results depend on the processing

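Csf2rb, Csf2rb2, Csf1, Csf1r and Csf3r had negative fold changes in 18 of 18 alternatives, and Csf2ra and Spi1 in 14 of 18. Csf2rb and Csf2rb2 passed the threshold with DESeq2 (log2 fold changes -1.44 and -1.47), without a filter on low counts (-1.33 and -1.36), with the GC offset (-1.03 and -1.10), with the GC offset plus replicate block (-1.03 and -1.08) and with the GC offset over 5 libraries without labelled low replicate 3, chosen after seeing the data (-0.88 and -0.87), so that 2 of the 7 were called in each of these. With the replicate block alone they were -1.35 (adjusted p 0.162) and -1.36 (adjusted p 0.17) by edgeR, and 0 of the 7 were called, with 4 under an unadjusted p of 0.05. Leaving out 1 library at a time gave -1.62 to -1.07 for Csf2rb, -1.69 to -1.05 for Csf2rb2 and -1.28 to -0.65 for Csf3r, with 0 to 3 of the 7 called and 1 to 31 genes called in the pathway lists.

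Csf2ra and Spi1 changed sign with the GC offset (0.019 and 0.074), with GC offset plus block (0.024 and 0.074), without both libraries of batch 3 (0.045 and 0.014) and with the GC offset over 5 libraries (0.12 and 0.10). Ncf4 did so in those settings (0.17, 0.19, 0.19 and 0.31), with total counts (0.12) and without labelled low replicate 3 (0.079), its range with 1 library left out being -0.61 to 0.079. The pathway lists held 4 calls, 15 with DESeq2, 14 without the filter, 14 with the GC offset, 19 with GC offset plus block and 12 with the GC offset over 5 libraries. Over all genes the 63 calls became 398 with DESeq2, 549 without the filter, 41 with the block, 366 with the GC offset, 617 with GC offset plus block, 341 with the GC offset over 5 libraries, 28 without batch 3 and 8 to 1030 with 1 library left out, the most without labelled low replicate 2. Calls went lower in 50 of 63 genes, against 52 of 60 with total counts, which moved the median log2 fold change of all genes to 0.25. With 1 library left out the ratio of Csf2rb2 to Csf2rb differed by -0.084 to 0.066 and that of Csf1r to Spi1 by -0.16 to 0.091. With the length of the longest transcript Csf1 ranked 6 and Csf3r 7 under both labels. In the 100 bases before the start site 9.82% of windows held GAGGAA, 5.61% TGTGGT and 3.43% TTGCNNAA, a shorter window. The cause of the other changes was not tested. Depth limits Csf1 and Csf3r most, at 122 and 132 reads in labelled low replicate 3.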
